A study of Mus musculus with 10 samples.

Results

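Secreted antagonists of WNT signalling and the ligand Wnt5a were followed in cultured fetal mouse testes, as 9 of the 24470 gene entries counted. The 9 genes were taken by name, and they were chosen by their normalized counts and log2 fold changes between treatments in these same libraries. Their differences between treatments are therefore given as a description. The members went through the same fit as all other genes, but their calls are not used as evidence, and adjusted p-values are given only for other genes of the pathway. Testes of C57BL/6 embryos at E12.5 were cultured for 48 h with 75 µM GPI (an inhibitor of glycogen phosphorylase, which breaks down stored glycogen) or with DMSO as the vehicle. Each of 5 mice gave a vehicle-treated and a GPI-treated sample, which makes 5 libraries per treatment, and no transgene or mutation was involved. Cultures included the mesonephros, which was dissected away before RNA of the gonad was extracted, so every gonadal cell type contributed to each library. Libraries held 10203679 to 15635322 counts. GPI-treated mouse 1 stood apart from the other GPI-treated samples, with a chi-square per degree of freedom between the counts of 2 libraries of 21.7 to 27.8, against 7.48 to 11 among the rest and 6.42 to 21.2 among vehicle-treated samples. Without mouse 1, 3082 genes and 18 other WNT genes were called, against 3198 and 17 with all mice. The log2 fold change without it was -0.31 for Sfrp1, 2.92 for Sfrp4 and -1.16 for Dkk2, beside -0.38, 2.99 and -1.07 with all mice.

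WNT proteins are secreted ligands that bind frizzled receptors, either with LRP5 or LRP6 to stabilize beta-catenin or with receptors such as ROR2 in beta-catenin independent signalling. Secreted frizzled-related proteins (SFRP1, SFRP2, SFRP4, SFRP5 and FRZB) and WIF1 bind WNT ligands outside the cell, whereas Dickkopf proteins such as DKK2 act on the LRP coreceptors. In the fetal gonad, WNT4 and RSPO1 promote ovarian development through beta-catenin, and Sfrp1 and Sfrp2 are known to be expressed in the fetal testis.

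RefSeq promoter windows around the start site (GRCm38.p6) were found for 5 of the 9 genes, Frzb, Sfrp2, Dkk2, Wif1 and Sfrp5. Dkk2 and Sfrp2 are shown because, of these 5, Dkk2 had the largest difference between treatments and Sfrp2 the highest level. Both lie on the forward strand, at chr3:132085042-132085341 for Dkk2 and chr3:83766071-83766370 for Sfrp2, and capitals mark matches to the searched motifs on either strand.
Dkk2: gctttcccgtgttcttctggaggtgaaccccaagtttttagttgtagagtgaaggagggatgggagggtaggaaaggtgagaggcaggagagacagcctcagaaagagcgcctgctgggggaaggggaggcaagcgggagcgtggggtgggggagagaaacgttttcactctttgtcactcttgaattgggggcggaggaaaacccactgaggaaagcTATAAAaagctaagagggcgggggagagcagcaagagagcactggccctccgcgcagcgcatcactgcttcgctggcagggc
Sfrp2: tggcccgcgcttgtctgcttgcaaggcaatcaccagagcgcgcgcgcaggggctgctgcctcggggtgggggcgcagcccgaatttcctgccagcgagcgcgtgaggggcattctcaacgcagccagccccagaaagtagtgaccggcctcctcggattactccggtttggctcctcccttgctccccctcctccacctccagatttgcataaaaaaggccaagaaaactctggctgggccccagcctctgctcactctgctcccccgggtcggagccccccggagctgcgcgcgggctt
The Dkk2 window held the TATA box letters TATAAA, beginning 32 bases before the start site, and 13.6% of the 32851 windows in the table held these letters on either strand. The Sfrp2 window held none of the motifs searched. Letters of the TCF/LEF motif (CTTTGAA, the variant CTTTGAT, the variant CTTTGTA and the variant CTTTGTT), present in 16.9% of all windows, were found in 0 of the 5, and so were those of the NR5A1 motif (CAAGGTCA), present in 1.6%. Letters of the GATA motif (AGATAA, the variant AGATAG, the variant TGATAA and the variant TGATAG), present in 29.8% of all windows, were found in those of Frzb and Sfrp5. Wif1 held TATAAA on the reverse strand, and no match of one motif overlapped a match of another in these windows. A match is a description of the letters and not a binding site.

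In vehicle-treated testes the genes spanned a wide range of levels, compared here as TMM-scaled CPM (counts scaled to a common library size) per kilobase of the longest transcript (mean ± SD, n = 5). Sfrp1 was the most abundant at 172.4 ± 24.0, and its lowest library, at 134.2, lay above every library of the other members. Sfrp2 (38.0 ± 14.7) and Wnt5a (34.6 ± 4.18) followed, and their ranges overlapped, with Sfrp2 between 21.8 and 61.9 and Wnt5a between 27.8 and 38.6. Dkk2 (4.76 ± 1.06) and Dkk3 (3.80 ± 0.719) came next on the same scale and overlapped each other, but neither reached the range of Wnt5a. Frzb (1.34 ± 0.769), Wif1 (0.675 ± 0.413) and Sfrp4 (0.472 ± 0.229) formed the lowest detected levels, Frzb overlapping Wif1 and Wif1 overlapping Sfrp4, while the highest Frzb library, at 2.65, lay below the lowest Dkk3 library, at 2.80. Sfrp5 was close to 0 in all 10 libraries.
With GPI, Sfrp1 was still first at 133.6 ± 26.4 CPM per kilobase, followed by Wnt5a at 34.2 ± 3.57 and Sfrp2 at 34.1 ± 13.0. Sfrp4 moved from the 8th place of the vehicle order to the 4th, at a level of 3.74 ± 1.32, ahead of Dkk3 (2.86 ± 0.370) and Dkk2 (2.39 ± 1.13), although the ranges of these 3 genes overlapped. Frzb (1.46 ± 0.227) and Wif1 (0.558 ± 0.384) came after them.

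**Figure D1:**
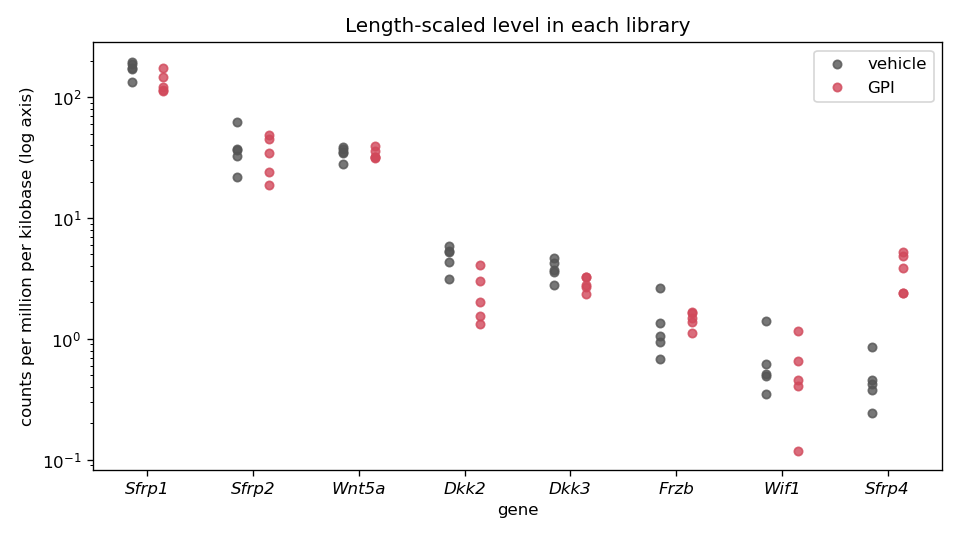
Level of each tested gene in CPM per kilobase (log axis), with 1 point per library, grey for vehicle and red for GPI, in the order of the vehicle means. Sfrp5, close to 0, is left out, and Sfrp4 is the gene whose red points, between 2.39 and 5.19, lie apart from its grey points, between 0.244 and 0.855.

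Differences between treatments are given for normalized counts, which are TMM-scaled to the mean library. Of the 9 members, 8 passed the low-count filter, and 1 of them was called higher and 2 lower with GPI. These 3 calls stand beside 22.9% of all 13941 tested genes called in either direction, 11.1% higher and 11.9% lower, and since the members were chosen from this comparison nothing is read from the count. The treatment groups did not overlap for 1 member, Sfrp4, and did not overlap for 16.1% of tested genes. The median log2 fold change was -0.25 over the 8 members that passed the filter and 0.02 over all tested genes.

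**Figure D2:**
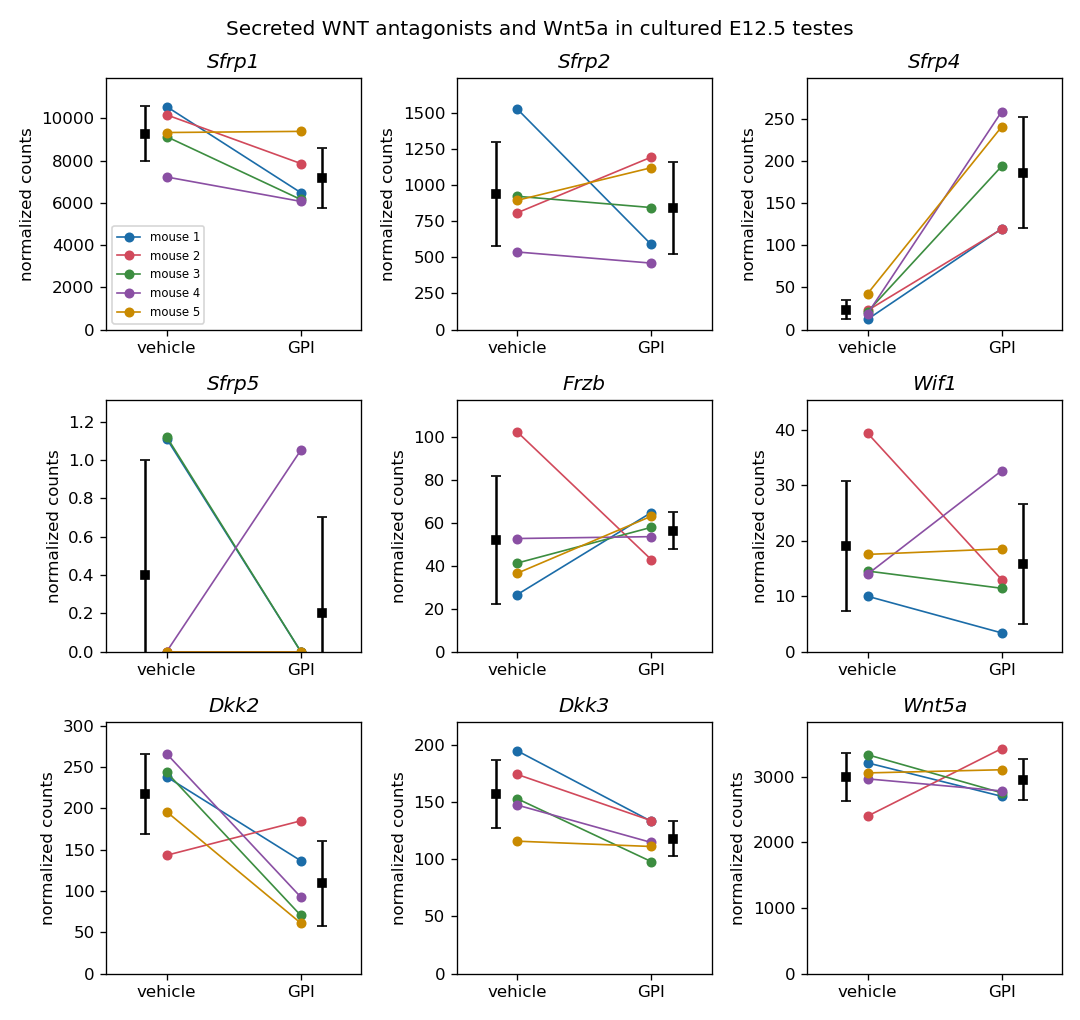
Normalized counts of the 9 genes in each library, with a coloured line joining the vehicle-treated and GPI-treated samples of each mouse and black squares with bars for the mean ± SD of 5 libraries. Every line of Sfrp4 rises and every line of Dkk3 falls, and each other gene has both rising and falling lines.

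Sfrp1 (Entrez 20377, chr8:23411502-23449632 in mm10) encodes a frizzled-related protein that binds WNT ligands through a frizzled-like cysteine-rich domain. Its normalized counts in mice 1 to 5 were 10559, 10169, 9135, 7227 and 9334 with vehicle and 6486, 7866, 6161, 6071 and 9388 with GPI. The GPI-treated sample was the lower one in 4 mice, the values of mouse 5 were almost equal, and the groups overlapped, with mouse 5 with GPI above 3 vehicle libraries and mouse 2 with GPI above 1. The mean went from 9285 ± 1291 to 7194 ± 1423 (SD, n = 5), a log2 fold change of -0.38 with a standard error of 0.09. Because whole gonads were measured, fewer cells of a type and less RNA per cell cannot be told apart here.

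Sfrp2 (Entrez 20319, chr3:83766321-83774314), a close relative of Sfrp1 with the same WNT-binding domain, varied more between mice than between treatments. Normalized counts were 1527, 808, 922, 537 and 894 with vehicle and 589, 1193, 844, 459.8 and 1120.1 with GPI. The highest library was vehicle-treated mouse 1 and the lowest GPI-treated mouse 4, and the GPI-treated sample was lower in 3 mice and higher in 2. Means were 938 ± 363 and 841 ± 321 (SD, n = 5), with a log2 fold change of -0.15 and a standard error of 0.20. Without mouse 1 the log2 fold change was 0.13, so the sign rested on that mouse.
Markers of mesonephric tubules also differed between libraries. Over 5 genes (Pax2, Pax8, Lhx1, Gata3 and Cdh16), summed normalized counts were 665.5, 338, 435.5, 192 and 265 with vehicle and 344, 349, 259.6, 258 and 264 with GPI. Vehicle-treated mouse 1 was highest of its group in this sum and in Sfrp2, and so was GPI-treated mouse 2, by little over mouse 1 in the sum. Sfrp2 itself was at 589 in GPI-treated mouse 1, against 1193 in GPI-treated mouse 2. In GPI-treated mouse 5, Sfrp2 was at 1120.1 beside a sum of 264. Pax8 was the most abundant of the 5 with vehicle and Gata3 with GPI, and 2 of them passed the filter, of which 0 were called by edgeR, DESeq2 or limma-voom and 0 had an unadjusted p under 0.05. Lhx1, set aside by the filter, was at 0 in 4 of the 5 GPI libraries and in none of the vehicle libraries, with means of 0.5 and 6.4 normalized counts, and Pax2 was at 0 in 1 library. Cdh16, singled out after its values were seen, was at 0 in 2 libraries and reached 112.9 normalized counts in vehicle-treated mouse 1, 48.0 in vehicle-treated mouse 3 and 21.1 in GPI-treated mouse 2. Gata3 did not follow this order, with 108.5 in vehicle-treated mouse 1 against 218.4, 165.3, 54.8 and 205.7 in vehicle-treated mice 2 to 5. The part of remaining mesonephric tissue in the Sfrp2 values was not tested.

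**Figure D3:**
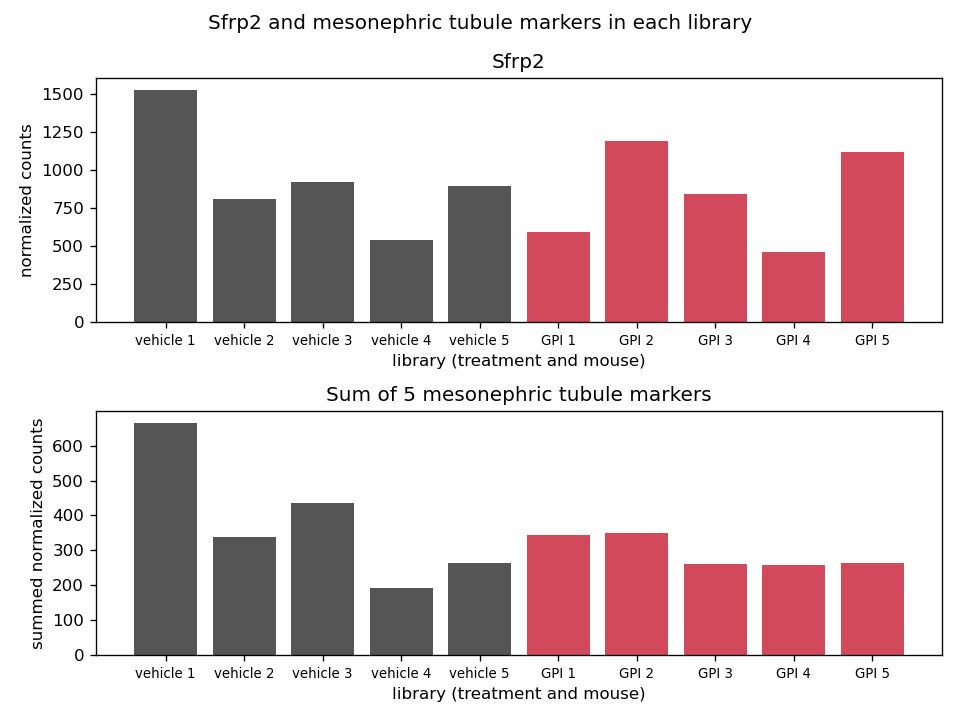
Normalized counts of Sfrp2 (top) and summed normalized counts of 5 mesonephric tubule markers (bottom) in each library, with grey bars for vehicle and red bars for GPI. Vehicle-treated mouse 1 has the tallest bar in both panels, at 1527 and 665.5.

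Sfrp4 (Entrez 20379, chr13:19623175-19632825), a frizzled-related protein that binds WNT ligands, had the largest difference of the 9 genes. Its normalized counts were 12.2, 22.7, 21.2, 18.9 and 42.7 with vehicle and 119.8, 119.2, 194.0, 259 and 241 with GPI. Each GPI-treated sample lay above each vehicle-treated sample, and vehicle-treated mouse 5 was the highest of its group. The mean went from 23.5 ± 11.4 to 186.5 ± 65.6 (SD, n = 5), a log2 fold change of 2.99 with a standard error of 0.23, or 7.94-fold. In single mice the log2 ratio ran from 2.30 in mouse 2 to 3.64 in mouse 4.
Sfrp4 made up 0.091% to 0.39% of the summed level of the 8 antagonists per kilobase with vehicle and 1.16% to 3.61% with GPI, so it stayed a small part of the sum. Markers of fetal Leydig cells, the androgen-producing cells, were also higher with GPI. Over 5 of them (Cyp17a1, Cyp11a1, Hsd3b1, Star and Insl3), summed normalized counts were 1280.0, 2700.4, 3980, 1991 and 5303 with vehicle and 9634, 10119, 15749, 18089 and 12928 with GPI. The vehicle library with the highest Leydig sum, mouse 5, was also the one with the highest Sfrp4, and mouse 4 was highest in both with GPI. Hsd3b1 was the most abundant of the list with vehicle and Cyp11a1 with GPI, 4 of 4 tested genes were called higher, and Insl3, which was set aside by the filter, had no count in 4 libraries. Summed Sertoli cell markers were higher with GPI too, at a mean of 2874.5 against 1803.5 with vehicle. The Sertoli sum was also highest in mouse 4 with GPI (3413). With vehicle it was highest in mouse 2 (2154), closely followed by mouse 5 (2112). The part of Leydig or Sertoli cells in the Sfrp4 values was not tested.

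Sfrp5 (Entrez 54612, chr19:42197971-42202252) encodes a further frizzled-related protein. A single count was found in vehicle-treated mice 1 and 3 and in GPI-treated mouse 4, and 0 in the other libraries. Sfrp5 therefore did not pass the low-count filter, and a difference between treatments was not detectable at this depth.

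Frzb (Entrez 20378, chr2:80411970-80447396), also called Sfrp3, binds WNT ligands and was first studied in cartilage. Normalized counts were 26.6, 102.6, 41.3, 52.8 and 36.6 with vehicle and 64.9, 43.0, 58.0, 53.7 and 63.2 with GPI. Mouse 2 ran against the others, with the highest vehicle value and the lowest GPI value, and the groups overlapped. The means were 52.0 ± 29.8 and 56.5 ± 8.8 (SD, n = 5), and the log2 fold change was 0.24 with a standard error of 0.33.

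Wif1 (Entrez 24117, chr10:121034004-121100642) encodes a WNT-binding protein unrelated to the frizzled-related family. It was close to the detection limit, with 9.97, 39.4, 14.5, 14.0 and 17.5 normalized counts with vehicle and 3.4, 13.0, 11.4, 32.6 and 18.5 with GPI. High values came from vehicle-treated mouse 2 and GPI-treated mouse 4, so neither treatment was uniformly higher. Means were 19.1 ± 11.7 and 15.8 ± 10.9 (SD, n = 5), and the log2 fold change of -0.34 was smaller than its standard error of 0.48.

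Dkk2 (Entrez 56811, chr3:132085292-132180304) encodes a Dickkopf protein that binds LRP5 and LRP6 and, depending on Kremen receptors, inhibits or activates beta-catenin signalling. Its normalized counts were 238, 143.2, 243, 266 and 196 with vehicle and 136.6, 185, 70.4, 92.6 and 61.0 with GPI. In mice 1, 3, 4 and 5 the GPI-treated sample was lower, and in mouse 2 it was higher, so that the groups overlapped through the samples of that mouse. The mean went from 217 ± 48.6 to 109.1 ± 51.4 (SD, n = 5), a log2 fold change of -1.07 with a standard error of 0.26. The log2 ratio in single mice ran from -1.76 in mouse 3 to 0.36 in mouse 2.

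Dkk3 (Entrez 50781, chr7:112116019-112159057) encodes a divergent Dickkopf protein whose effect on WNT signalling differs between cell types. Normalized counts were 195, 174, 153.0, 147 and 116 with vehicle and 133, 134, 97.9, 115 and 111 with GPI. The GPI-treated sample was lower in each of the 5 mice, by the least in mouse 5, while vehicle-treated mouse 5 fell within the GPI range. The mean went from 157.1 ± 29.7 to 118.1 ± 15.3 (SD, n = 5), with a log2 fold change of -0.40 and a standard error of 0.15.

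Wnt5a (Entrez 22418, chr14:28505473-28525515), the ligand of the group, signals mainly without beta-catenin through receptors such as ROR2. Its normalized counts were 3208, 2397, 3332, 2964 and 3055 with vehicle and 2698, 3425, 2752, 2781 and 3103 with GPI. Mouse 2 had both the lowest vehicle value and the highest GPI value, and the groups overlapped over most of their range. Means were 2991 ± 361 and 2952 ± 308 (SD, n = 5), and the log2 fold change was -0.02 with a standard error of 0.10. Its coefficient of variation, 12.1% with vehicle and 10.4% with GPI, was lower than that of Sfrp2, at 38.7% and 38.1%.

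**Figure D4:**
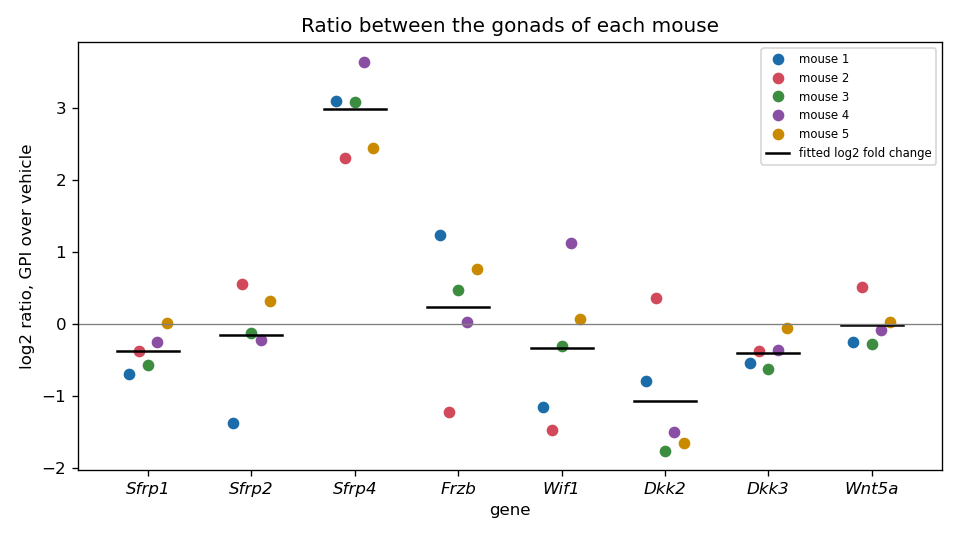
Log2 ratio of GPI over vehicle in each mouse for the 8 tested genes, with 1 coloured point per mouse and a black line at the fitted log2 fold change. The points of Sfrp4 lie between 2.30 and 3.64, and those of each other gene except Dkk3 lie on both sides of 0.

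Mouse 2 had the highest log2 ratio of the 5 mice for Sfrp2 (0.56), Dkk2 (0.36) and Wnt5a (0.51) and the lowest for Sfrp4 (2.30), Frzb (-1.22) and Wif1 (-1.47). Mouse 1 had the lowest for Sfrp1 (-0.70) and Sfrp2 (-1.37) and the highest for Frzb (1.23), and mouse 3 had the lowest for Dkk2 (-1.76), Dkk3 (-0.63) and Wnt5a (-0.28). When the 8 antagonists were summed per kilobase, the level was 269.2, 233.4, 218.1, 167.5 and 219.0 CPM per kilobase with vehicle and 154.7, 205.6, 158.3, 143.9 and 230.8 with GPI. The sum was lower with GPI in mice 1 to 4 and higher in mouse 5, and the groups overlapped. Sfrp1 supplied 72.8% to 80.9% of it with vehicle and 71.0% to 78.3% with GPI. The ratio of the antagonist sum to Wnt5a ran from 4.88 to 8.41 with vehicle (mean 6.48 ± 1.38, SD, n = 5) and from 4.47 to 6.42 with GPI (mean 5.20 ± 0.731, SD, n = 5), again with overlap. Like the sum, this ratio was lower with GPI in mice 1 to 4 and higher in mouse 5.

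For each tested member, the genes with the most similar log2 ratios over the 5 mice were sought among 11098 genes averaging 50 counts or more, by the root mean square difference. Nearest to Sfrp1 were Kif15 (0.076) and Rbm43 (0.101), and nearest to Sfrp2 were Gpr19 (0.135) and Lum (0.173). Sfrp4 had no gene as close, with Vsnl1 at 0.402 and Slitrk5 at 0.424. Distances were of similar size for Frzb (Mir378b and Gm10509, both 0.346), Wif1 (Mob3a 0.408, Far1os 0.46) and Dkk2 (Camk2n1 0.378, 2900026A02Rik 0.449). Dkk3 lay near Ppp1r13b (0.074) and Pclaf (0.085), and Wnt5a near Birc5 (0.039) and Lyrm9 (0.065).

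The rest of the pathway was tested in the fit of all 13941 genes, by the quasi-likelihood test of edgeR with p-values adjusted after Benjamini and Hochberg. Of 83 other WNT pathway genes, 60 were tested, and 7 were higher and 10 lower with GPI (28.3%, beside 22.9% of all tested genes), with a median log2 fold change of -0.04. Among other secreted antagonists, 3 of 8 were tested. Sostdc1, an antagonist of BMP and WNT signalling, rose from 32.6 ± 4.3 to 128.2 ± 37.5 normalized counts (SD, 5 libraries each), a log2 fold change of 1.94 (SE 0.22, adjusted p = 2.49e-05, higher in 5 of 5 mice). Igfbp4, an IGF-binding protein that also inhibits WNT signalling, changed by -0.52 on the log2 scale (SE 0.09, adjusted p = 0.000571, lower in 5 of 5 mice), and Dkk1 was not called (log2 fold change 0.44, SE 0.24), although its log2 fold change was 0.25 without mouse 2 and 0.69, with a call, without mouse 3. Sostdc1 and Igfbp4 thus differed in opposite directions.

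Of 18 other ligands 6 were tested and 1 was called, Wnt4, with a log2 fold change of -0.78 (SE 0.11, adjusted p = 0.000157, lower in 5 of 5 mice), beside -0.02 for Wnt5a. Wnt5b and Wnt11 had -0.44 and -0.46 and were not called, and without mouse 4 both had -0.28. Wnt3, named after its values were seen, was set aside by the filter, with 2.2 to 9.0 normalized counts with vehicle and 0 in the 5 GPI libraries, and was called when no low-count filter was used. Neither of the secretion genes Wls and Porcn was called by edgeR, DESeq2 or limma-voom (0 of 2, and 1 of 2 at an unadjusted p under 0.05).
Frizzled receptors, which bind WNT ligands such as Wnt5a, split by direction, with 4 higher and 2 lower of 8 tested. These calls were 75% of the tested receptors, beside 22.9% of all tested genes. Fzd10, named after its values were seen, was set aside by the filter, with means of 12.7 normalized counts with vehicle and 2.1 with GPI, lower in each mouse, and was called when no low-count filter was used. Fzd6 changed by -1.87 (SE 0.20, adjusted p = 1.24e-05) and Fzd4, a receptor with a known role in blood vessels, by -1.08 (SE 0.14, adjusted p = 6.23e-05), both lower in 5 of 5 mice. Fzd5 was higher by 0.78 (SE 0.13, adjusted p = 0.000481, 5 of 5 mice). The other 3, Fzd2 (0.58), Fzd8 (0.52) and Fzd3 (0.28), were named after their values were seen. Fzd3 was not called with scaling by total counts only or without any of mice 2 to 5, and Fzd8 was not called without mouse 3. Of the 3 tested genes of the LRP and Kremen list, on which Dickkopf proteins act, 0 were called by edgeR, DESeq2 or limma-voom and 0 had an unadjusted p under 0.05, and Lrp6 had a log2 fold change of 0.02 (SE 0.07), which became -0.03 with scaling by total counts only.
Among 11 tested receptors and polarity genes linked to Wnt5a, Dact1, an intracellular regulator of WNT signalling, was lower (log2 fold change -1.07, SE 0.12, adjusted p = 2.26e-05, 5 of 5 mice), Celsr2 was higher (0.78, SE 0.25, adjusted p = 0.0375, 4 of 5 mice) and Ptk7 was not called (-0.23, SE 0.08, adjusted p = 0.0534, lower in 5 of 5 mice). Ptk7 was called under 4 of 12 alternatives, with DESeq2 size factors, total counts only, at least 10 counts in every library or without mouse 2, and its adjusted p ran from 0.019 to 0.184 over the 12. Celsr2 was not called without the replicate block or without any of mice 2 to 5. Of 7 tested genes of the R-spondin module, which regulates receptor levels at the cell surface, edgeR called only Rspo3, at 0.74 (SE 0.19, adjusted p = 0.0108, 4 of 5 mice), which was not called without the replicate block, and limma-voom also called Lgr4 and Rnf43. Under other settings edgeR called Lgr4 too, without the replicate block or without mouse 4. It called Rnf43 with at least 10 counts in every library or without mouse 5.
Of 10 intracellular components 1 was called, the transcription factor Tcf7l1 (-0.54, SE 0.14, adjusted p = 0.0104, 5 of 5 mice), which was not called without mouse 4. Of 10 beta-catenin targets 0 were higher, 4 lower and 6 not called, beside 11.1% of all tested genes called higher and 11.9% lower. Ccnd1 (cyclin D1) changed by -1.20 (SE 0.20, adjusted p = 0.000696), Nkd2 by -1.05 (SE 0.24, adjusted p = 0.00604) and Lef1 by -1.01 (SE 0.20, adjusted p = 0.00197), each lower in 5 of 5 mice. The fourth was Myc (-0.30), named like Axin2 (-0.07, not called) after its values were seen, and Myc was not called without the replicate block or without any of mice 3, 4 and 5.

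**Figure D5:**
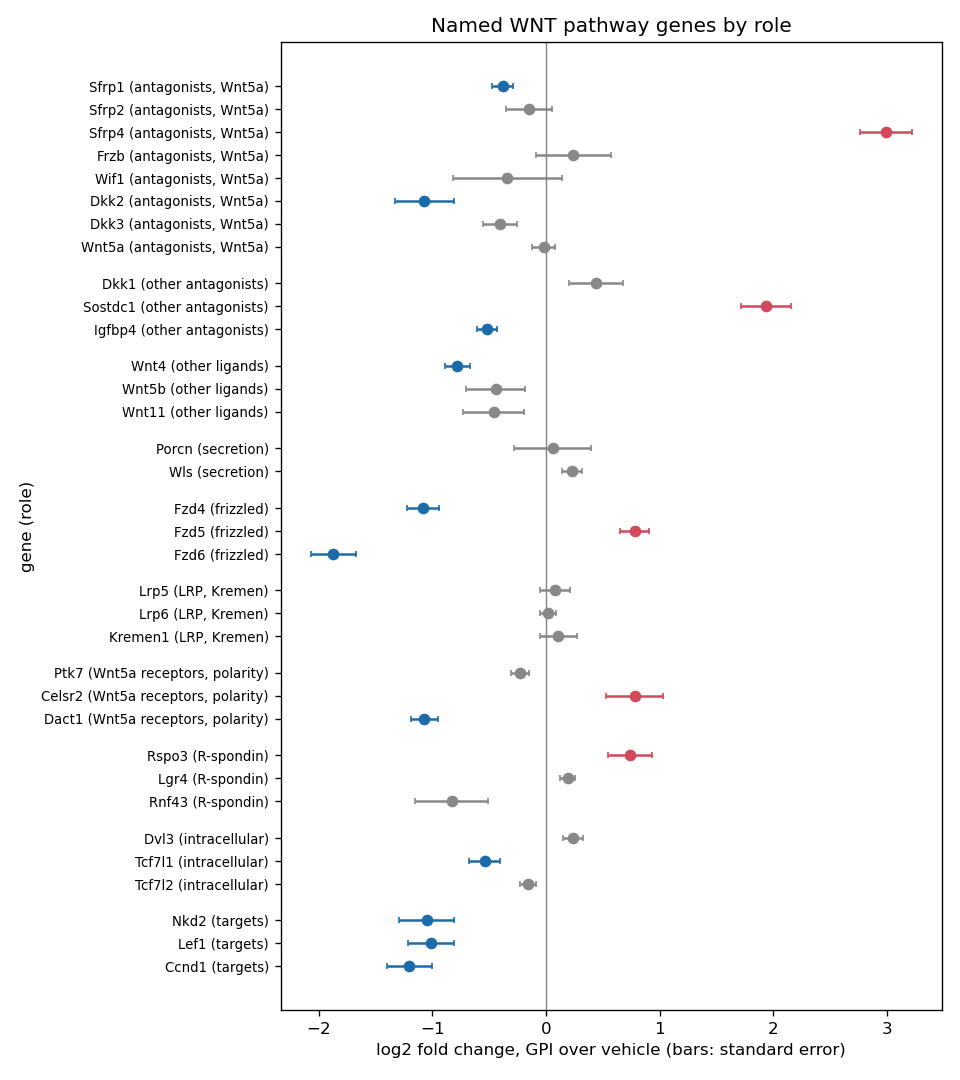
Log2 fold change of GPI over vehicle with its standard error for the tested members and the named genes of each WNT list, red where called higher, blue where called lower and grey where not called. Sfrp4, at 2.99, lies farthest to the right and Fzd6, at -1.87, farthest to the left.

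Cell type markers give the setting in which the members were measured. Sertoli cell genes were detected in every library, with Sox9 between 984 and 2141 normalized counts, and the pre-granulosa gene Foxl2 was between 10.5 and 58.5. Endothelial markers were lower with GPI in 6 of 6 tested genes, and their summed normalized counts were 7082, 7423, 6633, 7759.5 and 6835.5 with vehicle and 772, 937, 628, 517 and 649 with GPI, and Cdh5 was the most abundant with vehicle and Kdr with GPI. Germ cell markers were lower in 4 of 4 tested genes, with sums of 948, 2013, 1209, 1661.5 and 630.1 with vehicle and 125.4, 100.5, 25.7, 33.7 and 97.0 with GPI, with Dazl the most abundant with vehicle and Ddx4 with GPI. Erythroid genes were lower in 5 of 5, macrophage genes in 3 of 4 and perivascular genes in 2 of 4, whereas Sertoli genes were higher in 4 of 5. The Sertoli sum of GPI-treated mouse 1, 1934, lay within the vehicle range of 1483 to 2154, and those of the other GPI-treated samples lay between 2851.5 and 3413. Interstitial progenitor genes, the population that surrounds the cords, were mixed, with Pdgfra higher and Tcf21 and Dcn lower of 4 tested by edgeR (3 called, against 2 by DESeq2), and their sum was 15494 ± 1463 with vehicle and 15164.5 ± 1505 with GPI (SD, n = 5). Of the pre-granulosa list, which shares Wnt4 with the ligands, Bmp2 was higher and Wnt4 lower, and of 4 tested coelomic epithelium genes 0 were called by edgeR, DESeq2 or limma-voom and 0 had an unadjusted p under 0.05. The part of these cell types in the values of Sfrp1, Dkk2, Fzd4 and the other genes that were lower with GPI was not tested.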

How the data were processed

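Mapping was done by the authors on mm10 with STAR (version 2.5 in the submitters' processing notes), and read pairs were counted per RefSeq gene with featureCounts (Subread 1.5.0-p1) without regard to strand. The deposited values are raw counts and were used unchanged. Genes were filtered with filterByExpr (minimum count 10, minimum total 15), which left 13941. Calls come from edgeR 4.0.16 in R 4.3.3 (quasi-likelihood test, TMM, design of mouse and treatment, Benjamini-Hochberg FDR of 0.05). The fit was checked on simulated data that held no differences between mice, so the pairing was not checked in this way. Pairing comes from the animal label, and deviations from the treatment means correlated at 0.06 on average within a mouse and at -0.015 between mice. Log2 ratios used a prior count of 2. Transcript lengths came from GENCODE M21.

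The members and gene lists were chosen with earlier results of these data known. Named were the members, the 3 genes with the smallest p and called genes with an absolute log2 fold change over 1 in each WNT list, the first 3 and the most abundant marker of each cell type, and the 2 nearest genes of each member. Some listed markers are not reported here and enter no sum. Alternatives were DESeq2 1.42.0, limma-voom 3.58.1, no replicate block, other scalings and filters, and leaving out each mouse. Figures used matplotlib in Python.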

Additional observations from a re-analysis of the deposited data

Results flagged for a closer look

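In 4 of the 68 groups of 5 libraries checked for the tested members and named WNT genes, a library lay far from the other 4, and chance alone gives about 1 in 20. Wif1 in vehicle-treated mouse 2 had 39.4 normalized counts, against 9.97 to 17.5 in the other vehicle libraries. Ptk7 in GPI-treated mouse 4 had 659.7, against 828 to 886 in the others. Tcf7l1 in vehicle-treated mouse 2 had 692.1, against 339 to 413 in the others. Ccnd1 in GPI-treated mouse 2 had 240.8, against 117.9 to 145.5 in the others.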

How the results depend on the processing

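Against 3198 genes called, leaving out a mouse gave 2311 to 3082 and the other 7 alternatives gave 2819 to 3472. Genes called higher, 1544 in all mice, numbered 969 to 1430 with a mouse left out. With total counts only, 1238 genes were higher and 1972 lower (38.6% of calls higher, against 48.3%). Of the 17 other WNT genes called, 16 remained with total counts only, with Fzd3 lost and Celsr1, Ptk7 and Tcf7l2 added, and 13 to 17 with a mouse left out. The 3 members called, from which nothing is read, became 4 with total counts only.

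Without the replicate block, which pairs the gonads of a mouse, 3108 genes and 16 other WNT genes were called. Rspo3 (0.68, adjusted p = 0.0614 in the quasi-likelihood test of edgeR after Benjamini-Hochberg adjustment, range over its alternatives 0.000289 to 0.0614), Celsr2 (0.71) and Myc were then not called, and Lgr4 and Tcf7 were added.

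Of the 34 genes whose log2 fold change was computed under the alternatives, 7 that were not called turned sign with a mouse left out. The value ran from -0.34 to 0.13 for Sfrp2, -0.02 to 0.63 for Frzb, -0.79 to 0.04 for Wif1, -0.15 to 0.03 for Wnt5a, -0.26 to 0.22 for Porcn, -0.10 to 0.13 for Lrp5 and -0.02 to 0.04 for Lrp6, which was also -0.03 with total counts only. The cause was not tested. Wif1 has no value with at least 10 counts in every library.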
